A study of Caenorhabditis elegans with 2 samples.

Results

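The 9 genes described here control the switch from sperm to oocytes in the germline of the Caenorhabditis elegans hermaphrodite: mog-1, mog-4, mog-5, fog-1, fog-3, fem-3, tra-2, gld-1 and fbf-1. They were chosen by name, with peak values of these data in view, out of 19973 protein-coding genes. What was measured at them is binding of LAG-1, the CSL-type DNA-binding protein that acts in the nucleus for the Notch receptors GLP-1 and LIN-12. The worms were of strain RW12314, in which allele st12314 adds TY1, EGFP and 3xFLAG to the lag-1 gene itself. They were synchronised as starved L1 larvae after bleaching and taken whole as young adults at 62 hours. Chromatin was sheared by sonication and precipitated with an antibody to GFP, in 2 biological replicates of 1 group. No worms without the tag were analysed here, so no group stands against this one, and every value below is a description without a test. Whole worms mix germline and somatic nuclei, and a signal cannot be assigned to either.

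The hermaphrodite germline makes sperm first and then turns to oocytes for the rest of its life. FOG-1, FOG-3 and the FEM proteins promote the sperm fate, TRA-2 promotes the female fate, and the switch is set largely after transcription, by proteins that bind the messenger RNAs of tra-2 and fem-3. GLP-1 signalling keeps germline stem cells at the distal end of the gonad, where FBF proteins act downstream of it.

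The values are those of the authors' deposited ranking that compares the replicates, on the ce11 assembly. It lists 125458 entries, each with a summit, a signal and an IDR. The signal is the strength the peak caller assigned, and its unit is not named in the files. The IDR (irreproducible discovery rate) is the expected fraction of irreproducible entries at that rank and above. Entries at an IDR of 0.01 or below numbered 391. An entry belonged to a gene when its summit lay between 2000 bp upstream of the gene's 5' end and its 3' end. By this rule the 9 genes held 67 entries with a median signal of 19.2, against 19.4 over the whole ranking. The read depth behind the entries is unknown, so the agreement of both compared lists is the only gauge of error.

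Among the 9 genes, 1 had an entry past the IDR threshold of 0.01, namely mog-4. The background share of protein-coding genes with such an entry was 1.56%, and since mog-4 was known to have a strong peak when the genes were chosen, nothing is read from this count. The mog-4 entry at chrII:14561732-14561967 reached a signal of 163.0 (IDR 0.000605). The next strongest entry at any of the 9 genes, in tra-2, had a signal of 39.7, so the mog-4 entry was 4.11 times as strong. Only 8 protein-coding genes had a stronger entry than mog-4 in this ranking.

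mog-4 encodes a DEAH-box RNA helicase related to a yeast splicing factor. The gene runs from 14552504 to 14561599 on the minus strand of chromosome II, and the summit at 14561850 lay 251 bp upstream of its 5' end. No protein-coding gene was divergent from mog-4 within 2000 bp. Of all annotated genes, the pseudogene WBGene00044053 was the 1 other within 2500 bp of the summit. It lies on the same strand, its 3' edge was 364 bp from the summit, and its own 5' end was 2161 bp away. The nearest protein-coding 5' end was therefore that of mog-4 itself, and the entry fell in the span of no other protein-coding gene.

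The bases within 100 bp of the mog-4 summit are printed here because the entry is the strongest of the 9 genes and holds no copy of the LAG-1 site. Those of an entry in mog-1 and of an entry in lag-1 follow, as windows that do hold the site. Each runs 5' to 3' on the strand of its gene, from the WBcel235 genome, which is ce11. In mog-1 and lag-1 the capitals mark the LAG-1 site, GTGGGAA or ATGGGAA on either strand. In mog-4 they mark the bases that recur elsewhere in the genome in exact runs of at least 31.
mog-4, chrII:14561750-14561950, minus strand: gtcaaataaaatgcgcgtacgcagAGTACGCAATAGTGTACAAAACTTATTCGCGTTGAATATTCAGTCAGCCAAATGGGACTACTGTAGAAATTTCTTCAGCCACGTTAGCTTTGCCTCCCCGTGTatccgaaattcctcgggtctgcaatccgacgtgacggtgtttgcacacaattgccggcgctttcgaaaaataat
mog-1, chrIII:9953602-9953802, minus strand: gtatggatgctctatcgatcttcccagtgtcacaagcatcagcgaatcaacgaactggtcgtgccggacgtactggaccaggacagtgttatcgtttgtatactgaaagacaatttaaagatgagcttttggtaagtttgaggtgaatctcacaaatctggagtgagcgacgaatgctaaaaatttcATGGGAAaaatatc
lag-1, chrIV:6097097-6097297, plus strand: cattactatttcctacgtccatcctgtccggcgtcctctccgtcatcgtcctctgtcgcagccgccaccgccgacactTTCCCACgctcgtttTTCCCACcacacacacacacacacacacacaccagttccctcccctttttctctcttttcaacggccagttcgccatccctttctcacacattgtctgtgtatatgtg

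The mog-4 window of 201 bases had a GC content of 45.3%, against a median of 37.8% over all entries. It held 0 LAG-1 sites. The closest word was ATGGGAC, which differs from ATGGGAA by A7C (positions counted from 1 at the 5' end of the word) and is centred 22 bp from the summit. Such a word, 1 base off the site at any place but the first, occurred in 63.2% of the windows of all entries, so its presence does not set mog-4 apart. The nearest exact site was GTGGGAA in the coding sequence, 1147 bp from the summit.

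Part of the mog-4 window is repeated in the genome. A stretch of 103 bases, from 14561824 to 14561926, holds the summit, and its runs of 31 bases recur exactly at 8 other places. At 2 of these, on chromosomes I and III, the whole stretch of 103 bases recurs. Of the 8 places, 5 had an entry within 100 bp, with signals from 5.62 to 40.0. The other 3 had none, and both full copies of the stretch were among them. Copies of 102 bases, on chromosomes I and II, did have entries, with signals of 29.6 and 40.0. The lowest IDR at the 8 places was 0.0328, so 0 of them passed 0.01. The part of this repeat in the mog-4 signal was not tested, and the treatment of reads that match several places is not given in the sources used here. Of the 171 runs of 31 bases in the window, 73 recur and the rest were found nowhere else.

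The mog-4 entry appeared in every deposited list. In the first compared list its signal was 69.6 and in the second 92.3. The columns carry no replicate name. The values of the first list recur for 56113 entries in replicate 1's own ranking and for 0 in that of replicate 2, and those of the second list for 49552 entries in replicate 2's ranking and for 0 in that of replicate 1. Within replicate 1 the summit moved by 30 bp, the IDR was 0.00121, and the signals in the 2 lists compared there were 37.1 and 33.5. Within replicate 2 the summit was the same, the IDR was 0.000339 and the signals were 55.6 and 41.5. The entry ranked 8 by signal among the 47 entries of replicate 1's thresholded list and 5 among the 77 of replicate 2's. In the authors' conservative list it ranked 5 of 291, and in the full ranking, which keeps strong entries absent from that list, 36 of 125458.

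The rest of mog-4 held few entries. Its span of 11096 bp held 3 entries, or 0.270 per kb, the lowest density of the 9 genes. fog-1 came close at 0.365 per kb. The median of the 9 genes was 1.29 per kb, against 1.34 over all protein-coding genes. The second entry of mog-4 lay 907 bp upstream with a signal of 30.5 (14.7 and 14.9 in the first and second lists). The third lay in the coding sequence 111 bp from the 5' end, with a signal of 20.1 (6.87 and 16.6).

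**Figure D1:**
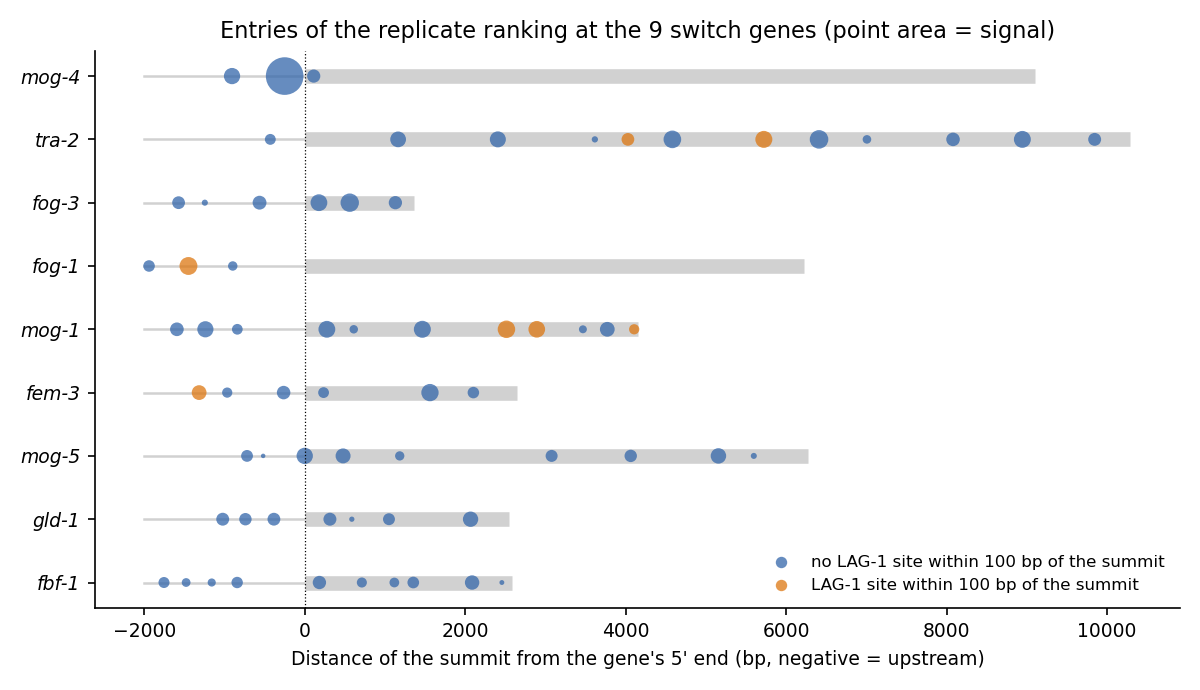
Each point is an entry of the replicate ranking at 1 of the 9 genes, placed by the distance of its summit from the gene's 5' end in bp, with an area proportional to its signal and orange where a LAG-1 site lies within 100 bp. Grey bars are gene bodies and thin lines the 2000 bp upstream; the entry 251 bp upstream of mog-4 stands out with a signal of 163.0, while the highest of the others is 39.7.

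The other MOG helicases had no comparable entry. mog-1 (chromosome III, 9952060 to 9956215, minus strand) encodes another DEAH-box helicase of the splicing machinery and held 11 entries. Its strongest, in the coding sequence 2513 bp from the 5' end, had a signal of 35.2 (IDR 0.203). The lists disagreed on it, with 11.7 in the first and 27.2 in the second. It also lies in the upstream span of K03H1.11, whose 5' end, 1738 bp away, is nearer than that of mog-1. An ATGGGAA word in the neighbouring intron was centred 90 bp from its summit, as marked in the sequence above. The entry of mog-1 with the lowest IDR, 0.136, lay 275 bp into the gene with a signal of 32.6 (18.6 and 17.6). This entry also falls in the upstream span of alx-1, whose 5' end is divergent and 1136 bp from that of mog-1, and it is the strongest entry of alx-1 as well.

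mog-5 (chromosome II, 5399538 to 5405810, plus strand), a DEAH-box helicase gene of the same group, held 9 entries. The strongest lay 1 bp upstream of the 5' end, with a signal of 30.7 (IDR 0.237), and with 19.5 in the first list and 12.4 in the second. The gene fbxl-3 is divergent from mog-5, with 636 bp between the 5' ends, and the entry lies in both spans. fbxl-3 has a stronger entry of its own, with a signal of 43.4, which lies 2060 bp upstream of mog-5 and so just outside the span searched for it. At both genes the entries stayed far from the threshold that mog-4 passed.

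Genes that promote the sperm fate likewise missed the threshold, which only 1.56% of all protein-coding genes passed. fog-3 (chromosome I, 10016765 to 10018121, plus strand), which encodes a protein of the Tob family, had the lowest IDR after mog-4. Its strongest entry lay in an intron 560 bp from the 5' end, with a signal of 39.0. The lists gave it nearly the same value, 18.2 in the first and 18.9 in the second, and its IDR was 0.123. A second entry, in the coding sequence 176 bp from the 5' end, had a signal of 32.5 (IDR 0.203).

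fog-1 (chromosome I, 3211046 to 3217267, plus strand) encodes an RNA-binding protein of the CPEB family. It held 3 entries, all upstream of the gene, and 0 within its body. The strongest, 1450 bp upstream, had a signal of 36.9 (IDR 0.148), with 19.3 and 16.2 in the lists. It lay inside the upstream gene Y54E10A.17, and GTGGGAA was centred 94 bp from its summit. This window was repeat-masked in full, with runs of 31 bases that recur at 609 other places. Their part in the signal was not tested. An ATGGGAA word 11 bp upstream of the fog-1 5' end had its nearest summit 887 bp away.

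fem-3 (chromosome IV, 9104966 to 9107607, plus strand) encodes a protein that promotes male fates, and its messenger RNA is a target of the repression that ends sperm production. Its strongest entry lay in the coding sequence at 1560 bp, with a signal of 34.5 (IDR 0.159) and with 15.9 and 18.6 in the lists. The entries on either side of its start were weaker. That 264 bp upstream had a signal of 21.1 (8.47 and 12.8, IDR 0.388). That in the 5' UTR, 234 bp from the 5' end, had 13.5 (10.9 and 3.85, IDR 0.683). An entry 1317 bp upstream with an ATGGGAA word had 21.2 in the first list and 2.68 in the second, the largest ratio between the lists among the 67 entries. That entry is nearer to the 5' end of the divergent gene C01F6.14, which starts 845 bp from that of fem-3.

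Genes of the female fate and of translational control gave the lowest levels as well as the strongest after mog-4. tra-2 (chromosome II, 6955384 to 6965673, minus strand), which encodes a membrane receptor, is the longest of the 9 and held the most entries, 12. Its strongest, at a signal of 39.7 (IDR 0.257), lay in the coding sequence 6409 bp from the 5' end, with 23.2 in the first list and 11.1 in the second. The next, in an intron at 4581 bp, had 4.74 in the first list and 31.7 in the second. Its lowest IDR, 0.195, was at 8943 bp, where the lists had 16.2 and 15.9. The 1 entry upstream, at 430 bp, had a signal of 13.7.

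gld-1 (chromosome I, 7695681 to 7698222, plus strand) encodes a translational repressor of the STAR family that binds tra-2 messenger RNA. Its strongest entry lay in the 3' UTR at 2066 bp, nearer to the 5' end of the next gene, T23G11.10, at a signal of 27.1 (IDR 0.257), with 18.1 and 12.1 in the lists. Its lowest IDR, 0.199, was at 1049 bp in the coding sequence, where the signal was 16.4 and the lists had 16.3 and 15.5. fbf-1 (chromosome II, 6078263 to 6080843, minus strand), a PUF-family repressor gene, had the lowest maximum of the 9. Its strongest entry lay in an intron at 2085 bp, at a signal of 23.8 (IDR 0.326), with 16.2 and 10.2 in the lists. The 5' end of the neighbouring gene H12I13.6, 854 bp from this summit, is nearer than that of fbf-1. The entry also lies in the upstream span of a non-coding RNA gene, whose 5' end is 528 bp away. Part of the window of this fbf-1 entry, 67 of 171 runs of 31 bases, recurs exactly in the near-identical gene fbf-2. The part of this copy in the signal was not tested.

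**Figure D2:**
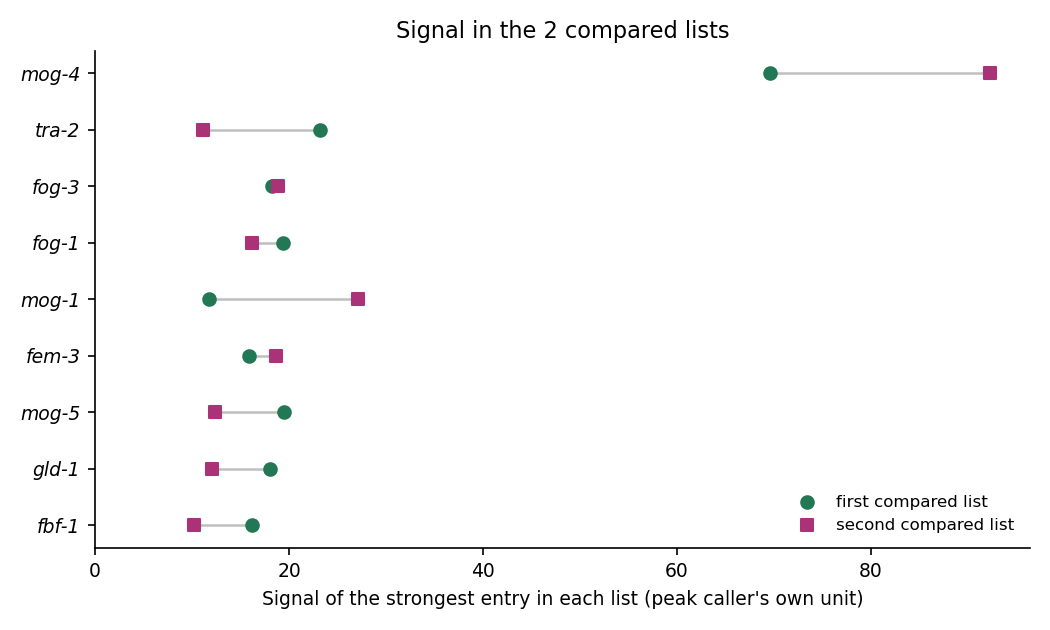
The strongest entry of each gene is shown by its signal in the first compared list (circles) and in the second (squares), in the peak caller's own unit. mog-4 has 69.6 and 92.3, while the other 8 genes lie between 11.7 and 23.2 in the first list and between 10.2 and 27.2 in the second.

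None of the 8 other genes came near the signal of mog-4. Their strongest signals ran from 23.8 (fbf-1) over gld-1 (27.1), mog-5 (30.7), fem-3 (34.5), mog-1 (35.2), fog-1 (36.9) and fog-3 (39.0) to 39.7 (tra-2). The order of the 8 differs between the lists: the first puts tra-2 highest and mog-1 lowest, and the second puts mog-1 highest and fbf-1 lowest. No neighbours in this order can be told apart from 2 lists. Of the 67 entries, 28.4% differed by more than 2-fold between the lists, against 32.7% of all entries, and 46.3% stood at the highest IDR of the ranking, 0.683, against 40.4% of all. At mog-5, gld-1 and fbf-1, 6 of the entries form 3 pairs that rest on the same values of the lists.

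Set beside the strongest entry of every protein-coding gene, the 8 genes other than mog-4 lay on both sides of the median. The median over the 9 genes was 35.2, against 32.2 over all genes, of which 918 had no entry. Of the 8, 5 lay above that median and 3 below it. The percentile among all genes was 99.96 for mog-4, and from 17.4 for fbf-1 to 78.1 for tra-2 among the others. These ends depend on the list and the span: fbf-1 stood at 27.6 without replicate 1 and 40.4 without replicate 2, and tra-2 at 54.8 among genes in the same decile of span length and 97.0 without replicate 1. Just above mog-4 stood cmk-1, a calcium/calmodulin-dependent kinase gene (164.8, with 75.3 and 95.6 in the lists), and just below wbp-4 and F56G4.6, which share an entry (153.2, with 72.5 and 70.4).

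**Figure D3:**
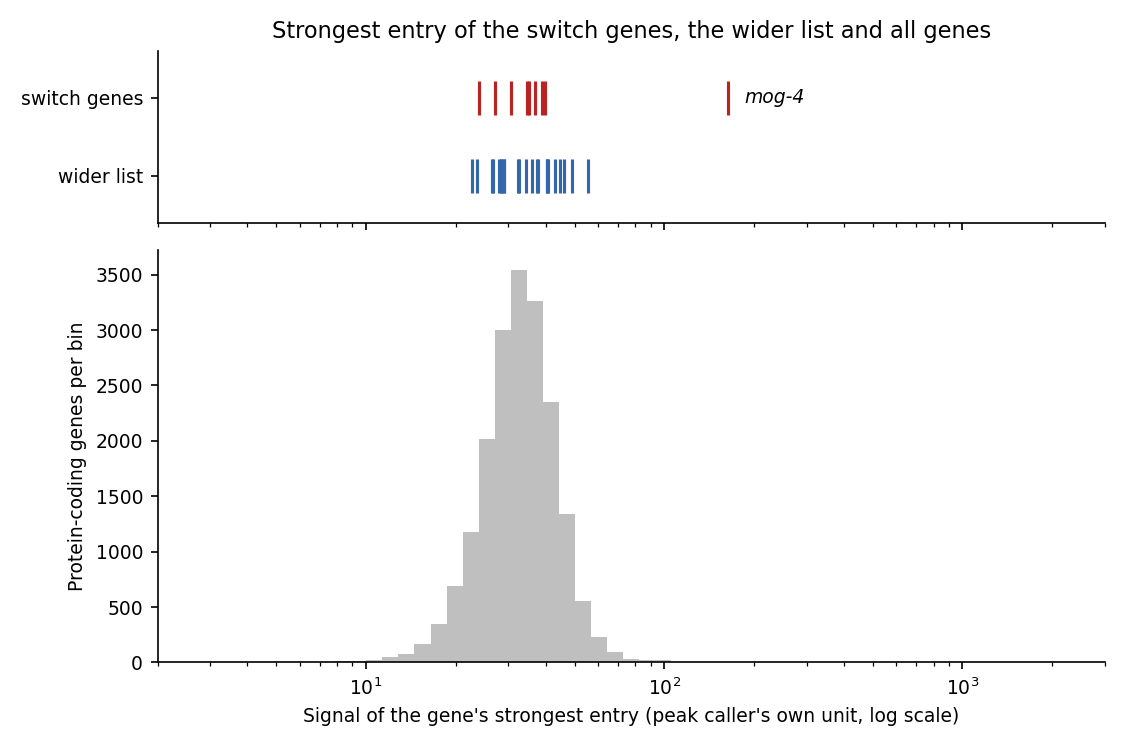
The grey histogram counts protein-coding genes by the signal of their strongest entry (log scale, peak caller's own unit), leaving out the 918 genes with none. Ticks above it mark the 9 switch genes, of which mog-4 at 163.0 lies beyond the bulk, and the 23 genes of the wider list, the highest of which is 55.4.

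mog-4 also stood apart from the rest in the other deposited rankings. All of them come from the same 2 replicates, and mog-4 was known to have a strong peak when the genes were chosen. Nothing is therefore read from the counts below. The authors deposited a second ranking for the series as a whole, whose difference from the first is not stated, and it gave mog-4 an IDR of 0.000564. The lowest IDR of the other 8 there was 0.0351, at fog-1. Within replicate 1 alone it was 0.368, again at fog-1, and within replicate 2 it was 0.208, at tra-2. fog-1 had no entry at all in replicate 2's own ranking. The same entry, within 100 bp, was the strongest of its gene at 7 of the 9 genes in replicate 1's ranking and at 3 of 9 in replicate 2's. The count of genes past the threshold was 1 of 9 in each of these rankings, against backgrounds of 1.78% (second ranking), 0.275% (replicate 1) and 0.456% (replicate 2). It was also 1 in the thresholded lists, against 1.49% (conservative), 0.21% (replicate 1) and 0.391% (replicate 2). With an IDR of 0.005 or below it was 1 against 0.866%, with spans of 1000 and 500 bp upstream 1 against 1.26% and 1.05%, and with entries given only to the nearest protein-coding 5' end 1 against 0.981%.

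**Figure D4:**
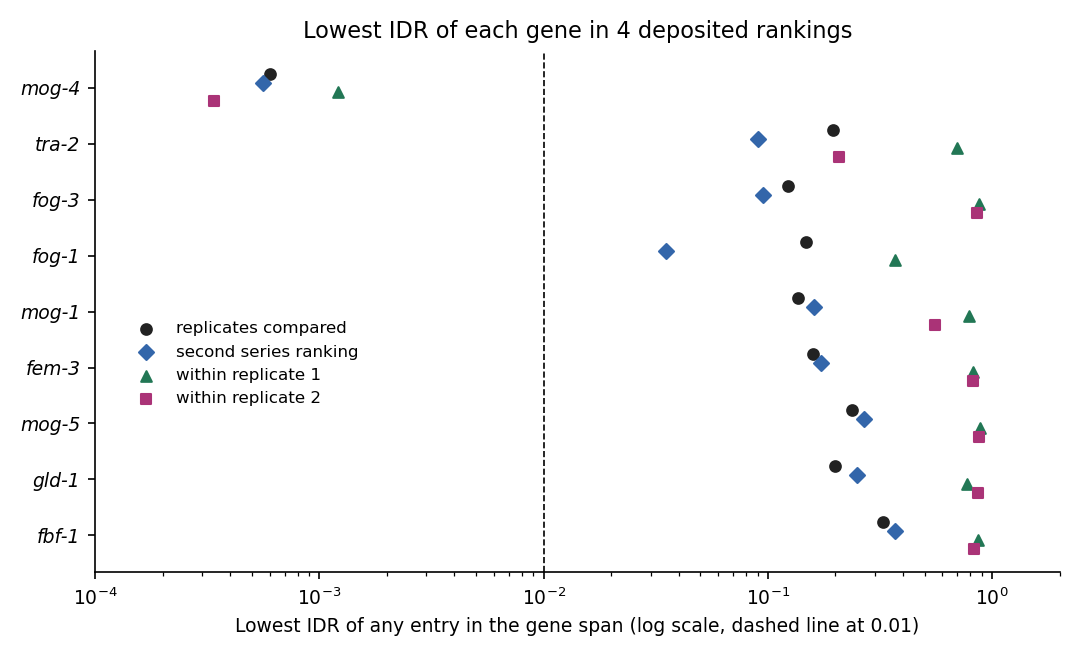
For each gene the lowest IDR of any entry in its span is shown (log scale) in the ranking that compares the replicates, the second series ranking and the rankings within each replicate. mog-4 lies left of the dashed line at 0.01 in all 4, and every other point lies at 0.0351 or above.

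LAG-1 sites were counted over the same spans. The spans of the 9 genes held 24 sites (10 GTGGGAA and 14 ATGGGAA), or 0.380 per kb, against 0.319 per kb over all protein-coding genes. Of the 24, 6 were centred within 100 bp of a summit (in mog-1, fog-1, fem-3 and tra-2), or 25.0%, against 27.5% of the sites of all protein-coding genes. By gene, fog-1 had the most with 7, tra-2 had 5, mog-1, mog-4 and fem-3 had 3 each, mog-5 had 2, fog-3 had 1, and gld-1 and fbf-1 had 0. All 3 sites of mog-4 lie in the gene body, and the summits nearest to them were 785 to 7506 bp away. The strongest entry held a site in 2 of the 9 genes, mog-1 and fog-1, against 6.83% of the 19055 genes with an entry. Over all 67 entries, 7 held a site (for 1 at the 3' end of mog-1, the site lies beyond the gene), or 10.4%, against 6.44% of the whole ranking. For comparison, the strongest entry of sygl-1, a GLP-1 target gene of the germline stem cells, held 4 sites with a signal of 100.3. The entry of lag-1 printed above held 2 with a signal of 75.9. That of lst-1, another GLP-1 target gene, also held 4 sites but had a signal of 29.2 (IDR 0.180), and that of glp-1 held 0 with 35.9 (IDR 0.140).

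A wider list of 24 genes of germline sex determination and its RNA regulators was described in the same way, and 23 matched the annotation by name. Of these, 0 had an entry at an IDR of 0.01 or below, beside the background of 1.56%. At an IDR of 0.05 or below there were 3 of 23, beside a background of 7.79%, and of the 9 switch genes still only mog-4. These 3 were atx-2, gld-2 and tra-1. atx-2, an ataxin-2-related RNA-binding protein gene, had the strongest entry of the list, 78 bp upstream of its 5' end, at a signal of 55.4 (IDR 0.0144), with 29.6 and 24.7 in the lists. A LAG-1 site lay within 100 bp of its summit. gld-2, which encodes a cytoplasmic poly(A) polymerase, had a signal of 49.2 (IDR 0.0261) in the coding sequence. tra-1, the zinc-finger transcription factor gene at the end of the sex determination pathway, had 40.7 (IDR 0.0325) in an intron. Both are long genes, with 28 and 40 entries. Over the 23 genes the strongest signals ran from 22.7 to 55.4 with a median of 34.3, against 32.2 over all genes, and 13 lay above that value. The matched mog genes of this list, mog-2 and mog-3, missed both thresholds. mog-6, the 1 gene not matched by name, was not examined. mog-2 had 28.3 (IDR 0.332), and mog-3 had 42.9 (IDR 0.133) at 163 bp upstream of its 5' end.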

How the data were processed

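LAG-1 ChIP-seq lists from 2 replicates were used as deposited. Per the notes deposited with each replicate, they derive from alignments on ce11. For the aligner and caller, names and versions were not given in the sources used here. In each deposited list the signal is a value per entry from the peak caller. The deposited score follows the IDR, and the deposited −log10 values of the rankings were turned into the global IDR. Read totals are unknown, so no interval is given, and both signals of an entry are printed in its place. Gene models came from Ensembl release 115 and sequence from the NCBI assembly WBcel235. All entries lay inside its chromosomes. Summits were assigned to genes, the highest signal was taken per gene, and sites were searched in 201 bases around each summit, with Python 3.11.15, NumPy 2.4.6, pandas 2.3.3 and matplotlib 3.10.9. The code was tested on simulated data. The 9 genes, the wider list and the alternatives were chosen with earlier results of these data known. Named are the 9 genes, neighbours with the nearest or a divergent 5' end, the genes next to mog-4 in rank, genes of the wider list at an IDR of 0.05 or below or strongest in it, and Notch genes. mog-2, mog-3 and WBGene00044053 were named outside this rule, after their values were seen, and the searches for repeated runs, words 1 base off the site and entries outside the spans were added then too. mog-6 is named only because it was not matched.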

Additional observations from a re-analysis of the deposited data

How the results depend on the processing

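No paired analysis was possible because the series has 1 group and no result comes from a test. The count of 1 gene past the threshold, mog-4, was 1 under all 9 alternatives run for it, all drawn from the same 2 replicates. The median percentile of the strongest entry over the 9 genes was 62.6. It was 69.9 with 500 bp upstream, 70.2 with entries given only to the nearest protein-coding 5' end, and 52.1 to 61.4 without 1 replicate. Among genes in the same decile of span length it was 56.7. That of mog-4 stayed between 99.9 and 99.985, while those of fog-1 (3.75 to 77.9), mog-1 (56.2 to 91.3), mog-5 (20.5 to 62.6), fbf-1 (up to 40.4, against 17.4) and tra-2 (54.8 to 97.0) ran widely, so the levels of single genes other than mog-4 depend on the list and span. The 2 genes with a site in the strongest entry became 0 within 50 bp of the summit, 1 for GTGGGAA alone, and 1 to 2 without 1 replicate. The genes changed too: they were mog-1 and fog-1, but mog-1 alone without replicate 1, and fog-1 and fem-3 without replicate 2, so no gene had the site under both. Of 23 alternative values for the group, 17 lay within 1 SD between the lists (for a count, within 1.5 times), as did 43 of 63 for single genes. That bound is wide where the lists disagree, as for mog-5, and narrow for mog-4. The causes were not tested. With 2 replicates, no worms without the tag and unknown depth, no value has an error of its own, and levels near the median cannot be ordered.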

Other observations

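Entries just outside the gene spans were examined up to 5000 bp upstream and 2000 bp beyond the 3' end, as values that belong to no comparison above. There were 58 such entries, with 0 at an IDR of 0.05 or below. Of all 125458 entries of the ranking, 391 stood at 0.01 or below, and the share at 0.05 is not given here. Nothing is therefore read from the count of 0. The strongest of the 58 was the entry nearest to fbxl-3, 2060 bp upstream of mog-5. Its signal was 43.4 (IDR 0.0820), with 20.9 in the first list and 19.9 in the second. The lowest IDR, 0.0747, was at an entry 2655 bp upstream of tra-2, nearest to the 5' end of eif-2Bgamma, a translation initiation factor gene. Its signal was 39.1, with 28.9 in the first list and 16.9 in the second. An entry 2011 bp upstream of fog-3, 11 bp beyond the limit of its span, was nearest to the 5' end of C03C11.1. Its signal was 39.7 (19.7 and 19.6), above the 39.0 of the strongest entry inside the fog-3 span. The copy of the fbf-1 window in fbf-2 lay near an entry of signal 40.4 (IDR 0.107), while the fbf-1 entry had 23.8 (IDR 0.326).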
